A study of Mus musculus with 8 samples.

Results

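The genes described here encode the mTOR complexes and their direct switch, 9 genes in mouse skeletal muscle: Rptor, Mtor, Mlst8, Akt1s1, Deptor, Rictor, Tsc1, Tsc2 and Rheb. All regions that the deposited chromatin accessibility table annotates to these gene names were taken, 511 of 489637 regions. Rptor was chosen by its signal in these libraries, at an internal start already known to differ between the groups, so its values below are a description and carry no test. The assay was ATAC-seq, where a transposase cuts accessible DNA and tags it for sequencing, on 50000 nuclei per library from the gastrocnemius, a calf muscle, of mice aged 6 months. The 4 vehicle libraries and the 4 iMSBmal1KO libraries all came from mice labelled Cre+:iMSBmal1 fl/fl, and the iMSBmal1KO mice had received tamoxifen. Bmal1, which the table lists as Arntl, is a core clock gene whose protein binds DNA with CLOCK. Because the groups differ in tamoxifen as well as in the induced knockout, effects of the drug and of the knockout cannot be told apart. The promoter that drives Cre and the time of day of collection are not given in the sources used here. Nothing in the labels says whether each library came from separate animals, so p-values measure the spread between these samples.

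mTOR is a protein kinase that works in 2 complexes. In mTORC1, raptor (Rptor) is the scaffold that brings substrates such as S6 kinase and 4E-BP to the kinase, PRAS40 (Akt1s1) and DEPTOR restrain it, and mLST8 binds the kinase domain. In mTORC2, rictor takes the place of raptor. The small GTPase RHEB switches mTORC1 on at the lysosome, and the TSC1 and TSC2 proteins keep RHEB in its inactive form. In skeletal muscle, mTORC1 is known for controlling protein synthesis and fibre size in response to insulin, amino acids and loading, and mice that lack raptor in muscle develop a myopathy.

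RefSeq promoter sequences on the GRCm38.p6 build, from 250 bases before to 50 after each start, were at hand for 8 of the 9 genes. Deptor had no entry. Of the sequences, 3 are shown: that of Rptor, which had the lowest GC content of the 8 (41.7%) and lies on chromosome 11 at 119602655 to 119602954 (plus strand), that of Rictor, which had the highest (78.3%, chromosome 15, 6708131 to 6708430, plus strand), and that of Rheb (chromosome 5, 24842312 to 24842611, minus strand), the only one with the letters CACGTG. This 6-base sequence, the E-box to which the BMAL1 and CLOCK proteins bind, is in capitals and begins 96 bases before the start.
Rptor: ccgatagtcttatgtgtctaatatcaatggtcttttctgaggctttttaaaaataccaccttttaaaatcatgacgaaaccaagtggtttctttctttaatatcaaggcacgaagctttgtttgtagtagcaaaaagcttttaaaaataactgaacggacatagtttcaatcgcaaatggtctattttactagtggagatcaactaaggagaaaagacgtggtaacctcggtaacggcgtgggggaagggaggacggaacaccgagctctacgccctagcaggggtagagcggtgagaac
Rictor: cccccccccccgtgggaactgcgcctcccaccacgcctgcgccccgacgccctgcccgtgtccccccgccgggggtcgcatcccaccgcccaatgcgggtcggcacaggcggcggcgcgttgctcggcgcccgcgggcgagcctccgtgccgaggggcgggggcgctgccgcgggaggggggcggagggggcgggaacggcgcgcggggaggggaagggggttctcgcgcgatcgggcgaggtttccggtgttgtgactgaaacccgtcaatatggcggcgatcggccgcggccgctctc
Rheb: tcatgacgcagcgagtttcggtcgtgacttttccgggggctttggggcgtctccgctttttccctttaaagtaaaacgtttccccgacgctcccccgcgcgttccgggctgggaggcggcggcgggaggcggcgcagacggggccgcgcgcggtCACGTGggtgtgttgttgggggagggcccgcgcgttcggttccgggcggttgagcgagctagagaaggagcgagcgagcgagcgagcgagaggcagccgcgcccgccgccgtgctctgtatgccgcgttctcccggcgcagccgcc
Searched on both strands, CACGTG was present in 7.15% of all 32851 RefSeq promoters of this length and in 1 of the 8. CACGTT, which differs from it in the last letter, was present in 4.68% of all promoters, TTATGTAA, a D-box, in 0.938%, and AGGTCA, the core of the element bound by ROR and REV-ERB proteins, in 16.3%. None of these other 3 was found in the 8 windows. A match describes letters only, and the Rheb start region that holds the CACGTG did not pass the test between the groups (values below).

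All values below are the deposited signal, reads in a region divided by 1 factor per library. Of the 511 regions, 141 had enough signal to be tested and 370 had not. Log2 changes are iMSBmal1KO minus vehicle on the log2(signal + 1) scale from a fit over all 124901 tested regions, given with the standard error (SE). A region is called when its limma p is under 0.05 after Benjamini-Hochberg adjustment across the 124901. In all, 110 regions were called, 0.0881%, of which 71 were lower (0.0568%) and 39 higher (0.0312%) in iMSBmal1KO. Of the 141 regions, 1 was called, the internal start of Rptor, which was lower. Rptor was chosen by this region, so the count of 1 is no result about the 9 genes. The 2 groups did not overlap at 10 of the 141, 4 lower and 6 higher, against 5.48% of all tested regions (1.87% lower and 3.62% higher). The median log2 change of the 141 regions was 0.08 and 85 of them were positive (60.3%), against a median of 0.12 and 62.0% over all tested regions. For the 8 genes other than Rptor, 0 of 82 tested regions were called, and the median change was 0.11. An unadjusted limma p under 0.05 was found at 7 of the 82 (8.54%, against 9.22% of all tested regions). The groups did not overlap at 5 of the 82 (6.10%), 2 lower and 3 higher.

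Depth, counted within the listed regions only, ranged from 4.31 to 29.5 M read equivalents per library. Vehicle replicate 4 was the shallowest and stood apart: its correlation with the others ran from 0.80 to 0.85, against 0.90 to 0.94 among the other 7. Of its signal in the listed regions, 16.5% was mitochondrial. Start regions of 10 skeletal muscle fibre genes, among them Acta1 and Ckm, summed to a signal of 11259 to 18501 in vehicle and 13976 to 16901 in iMSBmal1KO, so markers of the labelled tissue were present in every library. Lists for endothelial, fibro-adipogenic, leukocyte, satellite, smooth muscle, Schwann and adipocyte markers overlapped between the groups in their summed start signal. Their log2 differences ran from -0.06 (adipocyte) to 0.59 (leukocyte). In that order they had 27, 15, 5, 15, 36, 3 and 2 tested regions, and limma called 0 (0.0881% of all tested regions). Of their start sums 0 had an unadjusted limma p under 0.05 (10.1% of all). So few regions cannot show that the mix of cell types was unchanged. The targeted gene Arntl had a summed signal of 2688, 2248, 2557 and 1942 in vehicle and 3023, 3421, 3154 and 3315 in iMSBmal1KO, so it was higher in all 4 iMSBmal1KO libraries. Its gene-level change was 0.46 ± 0.14 (limma adjusted p = 0.374 over all genes), 1 of its 37 tested regions was called, higher, and the floxed exon is not given in the sources used here. In whole muscle, fewer nuclei of a type and less accessibility per nucleus cannot be told apart.

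Rptor spans chromosome 11, 119602905 to 119899591, in RefSeq on the plus strand, and 214 regions carried its name, of which 59 were tested. The table spread them over 8 transcripts. Of these, 168 regions were tied to Rptor-201, the protein-coding transcript. By position 161 regions lay in introns, 35 in exons of a 3′ UTR and 7 at annotated starts. At the main start, the start of Rptor-201 (119602920 to 119603278), the signal was 239, 270, 210 and 194 in vehicle and 280, 331, 278 and 287 in iMSBmal1KO. All 4 iMSBmal1KO libraries were above all 4 vehicle libraries, as at 3.62% of all tested regions. The means were 228 ± 33.5 (SD, n = 4) and 294 ± 24.97, a log2 change of 0.37 ± 0.19. The median change of all tested regions was 0.12, and this region was not called. Only 35 bases of this region fall within the promoter window printed above. The whole region lies downstream of the RefSeq start.

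At the internal start the change was negative. Rptor-204, which the table classes as a retained intron transcript, begins at 119811246, and the region over its start (119811098 to 119811425) lies 208 kb downstream of the start of Rptor-201. Its signal was 83.1, 78.1, 97.9 and 84.4 in vehicle and 8.56, 8.36, 5.96 and 18.8 in iMSBmal1KO. The lowest vehicle library, at 78.1, was far above the highest iMSBmal1KO library, replicate 4, at 18.8. These values stand for 78, 76, 154 and 27 reads in vehicle and 20, 10, 5 and 15 in iMSBmal1KO, so the shallowest vehicle library held more reads here than the deepest iMSBmal1KO library. The means were 85.9 ± 8.45 and 10.4 ± 5.72 (SD, n = 4), an 8.24-fold difference, with 12.1% of the vehicle signal remaining. The log2 change was -3.04 ± 0.32, and 0 of the 124901 tested regions had a lower one. Vehicle signal at this region was above the median tested region (19.4), and 16.5% of all tested regions were as high or higher.

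**Figure D1:**
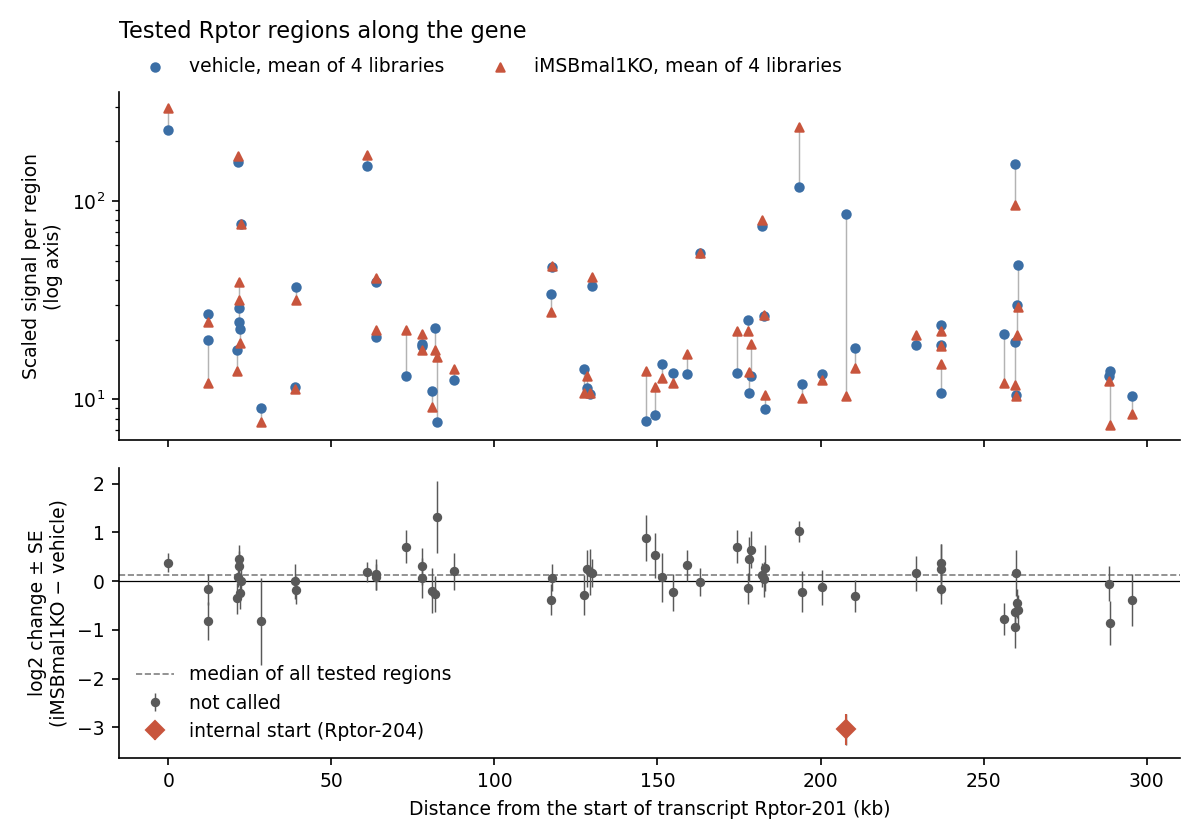
Tested Rptor regions by distance from the start of Rptor-201 (kb). The upper panel shows the mean signal of the 4 vehicle libraries (circles) and the 4 iMSBmal1KO libraries (triangles) on a log axis, with a line joining them. The lower panel shows the log2 change with its SE and the median of all tested regions (dashed). The internal start at 208 kb lies at -3.04, apart from the other 58 regions, which run from -0.94 to 1.31.

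Among the 59 tested Rptor regions the internal start ranked 6 by vehicle mean and 53 by iMSBmal1KO mean. It held 3.07% ± 0.239 (SD, n = 4) of all signal annotated to Rptor in vehicle and 0.365% ± 0.188 in iMSBmal1KO. The other 58 regions had a median log2 change of 0.07, with 32 positive and 26 negative. The signal summed over all Rptor regions was 2905, 2718, 3000 and 2558 in vehicle and 2615, 2929, 2840 and 2953 in iMSBmal1KO. These ranges overlapped, and the change of the sum was 0.02 ± 0.13. Leaving out the internal start, vehicle summed to 2709 ± 192 and iMSBmal1KO to 2824 ± 151. The loss at the internal start was thus not seen in the gene as a whole, where the internal start is a small share of the signal.

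The regions next to the internal start carried little signal in either group. The nearest tested one, in intron 10 (119813600 to 119813752), begins 2.17 kb downstream and had 17.1, 13.4, 20.3 and 21.9 in vehicle and 18.8, 10.9, 14.3 and 13.8 in iMSBmal1KO. The groups overlapped there, with a change of -0.31 ± 0.33. The other 5 neighbours, between 4.34 and 5.19 kb away, were too low to test, and the highest value of any library among them was 12.5. The start of Rptor-209, a transcript that begins between these neighbours and intron 7 at 119798773, was also too low to test. It had 9.60 ± 0.41 (SD, n = 4) in vehicle and 4.12 ± 1.64 in iMSBmal1KO. The start regions of Rptor-211, a transcript that begins 0.549 kb downstream of Rptor-201, were too low to test as well. Their sum went the other way, from 4.24 ± 3.41 in vehicle to 11.6 ± 1.66 in iMSBmal1KO.

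Of the 5 Rptor regions with the highest mean signal, the one with the greatest change lay 14.3 kb upstream of the internal start, in intron 7 (119796435 to 119796817), and was higher in iMSBmal1KO. Its signal was 147, 128, 116 and 81.3 in vehicle and 195, 270, 243 and 238 in iMSBmal1KO. The groups did not overlap, and vehicle replicate 4 was the lowest. The means were 118 ± 27.7 and 237 ± 31.2, a change of 1.02 ± 0.22. It was not called in the fit described here or under 16 of the 18 alternatives it was fitted with. It was called only with limma-voom (0.96) and with loess scaling (0.85). Like the other values of Rptor, these are a description. In vehicle it was weaker than the regions in introns 1 and 2, and in iMSBmal1KO its mean was above theirs. The intron 1 region (119624457 to 119624697) had 157 ± 11.6 in vehicle and 169 ± 34.9 in iMSBmal1KO, and the intron 2 region (119663992 to 119664299) had 150 ± 13.0 and 171 ± 18.9, with overlapping groups at both.

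Of 12 tested Rptor regions in 3′ UTR exons, 8 had a negative change and 4 a positive one, with a median of -0.31. Of the 3 tested regions at transcript ends, 2 were positive and 1 negative, with a median of 0.46, and the median of the 41 tested intronic regions was 0.08. No difference between these sections was tested. The strongest of the 3′ UTR exon regions (119862745 to 119863051) had 190, 127, 202 and 93.8 in vehicle and 71.9, 114, 84.7 and 114 in iMSBmal1KO. Vehicle replicates 1 to 3 were above every iMSBmal1KO library, and vehicle replicate 4 lay among them. This gave means of 153 ± 51.3 and 96.1 ± 21.2 and a change of -0.63 ± 0.26. A weaker region upstream (119859357 to 119859727) had 25.6, 20.5, 24.1 and 15.6 against 11.1, 9.20, 13.1 and 15.1, with a change of -0.77 ± 0.33. The groups there were separate by a small gap between vehicle replicate 4 and iMSBmal1KO replicate 4. Both of these 3′ UTR exon regions are annotated to Rptor-211, a transcript classed as nonsense-mediated decay. They lie upstream of the end of Rptor-201 (119899408), so they are not at the 3′ end of the protein-coding transcript. No tested region in the 3′ UTR exons, transcript ends or introns was called. Neighbouring regions of this table often abut, so they are not independent.

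**Figure D2:**
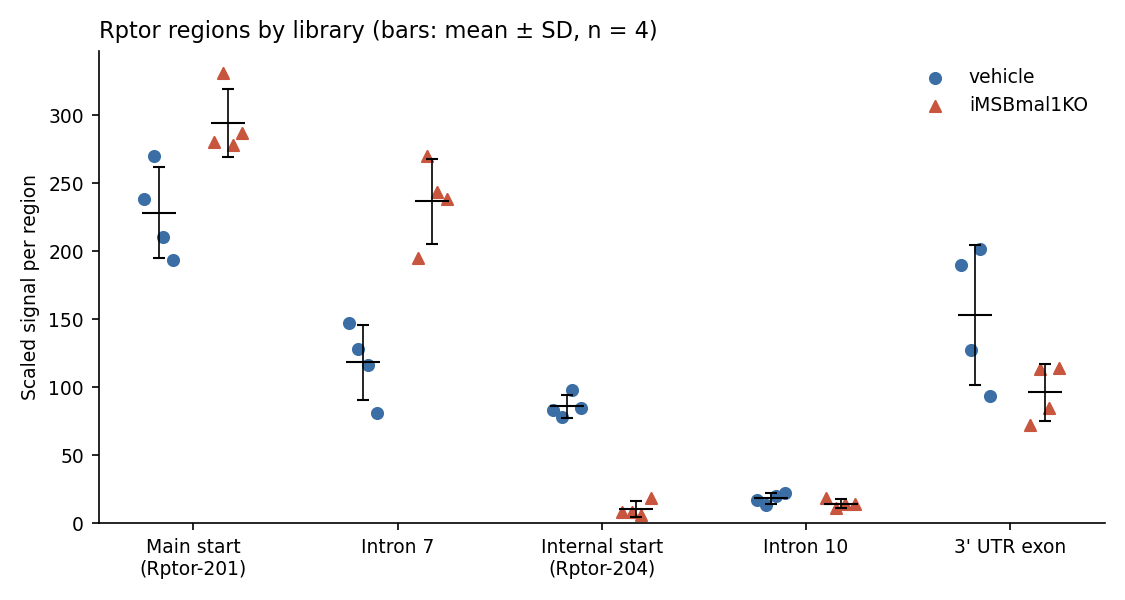
Signal of each library at 5 Rptor regions, with vehicle as circles, iMSBmal1KO as triangles and bars for the mean and SD (n = 4). The groups are separate at the main start, at intron 7 and at the internal start, where the 4 iMSBmal1KO libraries lie between 5.96 and 18.8, and they overlap at intron 10 and at the 3′ UTR exon.

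Mtor, which encodes the kinase of both complexes, had 63 regions, 16 of them tested and 0 called. Its start region (chromosome 4, 148448299 to 148448792) had 598, 509, 448 and 425 in vehicle and 597, 645, 438 and 528 in iMSBmal1KO. The groups overlapped, and the change was 0.15 ± 0.19 (limma adjusted p = 0.795). The Mtor region with the smallest p lay in intron 29 (148513123 to 148513276), with 10.7, 15.4, 10.8 and 3.13 in vehicle and 23.5, 36.8, 22.7 and 21.3 in iMSBmal1KO. The groups did not overlap there, but these values stand for 1 to 17 reads in vehicle, and the change of 1.43 ± 0.40 did not pass (limma adjusted p = 0.290). Summed over the gene, Mtor changed by 0.03 ± 0.13 (limma adjusted p = 0.949).

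Of the subunits that accompany the kinase, Mlst8, present in both complexes, had 5 regions and 2 tested. Its start region (chromosome 17, 24478713 to 24479318) had 808, 759, 565 and 678 in vehicle and 749, 850, 683 and 728 in iMSBmal1KO. The groups overlapped, with a change of 0.11 ± 0.18 (limma adjusted p = 0.854). Deptor, the inhibitory subunit, had 109 regions, 29 of them tested and 0 called, of which 23 had a positive change. Its start region (chromosome 15, 55112272 to 55112848) had 621, 666, 430 and 453 in vehicle and 608, 687, 536 and 595 in iMSBmal1KO, with a change of 0.18 ± 0.19 (limma adjusted p = 0.760). The Deptor region with the smallest p, in a 3′ UTR exon (55177804 to 55177874), had 19.5 ± 7.90 in vehicle and 11.6 ± 2.87 in iMSBmal1KO (SD, n = 4), a change of -0.66 ± 0.35 (limma adjusted p = 0.570). Another in the same transcript (55181974 to 55182185) had separate groups, 23.5 to 28.8 in vehicle and 15.5 to 20.1 in iMSBmal1KO, a change of -0.48 ± 0.29 (limma adjusted p = 0.599).

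Akt1s1, which encodes the mTORC1 inhibitor PRAS40, had only 5 regions under its own name, 3 of them tested and all at the end of the gene. All 3 changes were positive, with a median of 0.61, and none was called. The one with the smallest p (chromosome 7, 44854837 to 44854895) had 7.46, 15.4, 12.7 and 3.13 in vehicle and 18.8, 25.1, 14.3 and 8.78 in iMSBmal1KO, and its groups overlapped (change 0.83 ± 0.45, limma adjusted p = 0.572). A wide region (44848589 to 44850285) that the table annotates to its neighbour Tbc1d17 holds the RefSeq beginning of Akt1s1 (44849224). It covers 164 of the 300 bases of the Akt1s1 promoter window (44850122 to 44850421) and ends before the window does. This region had 3490, 3291, 2356 and 2320 in vehicle and 2831, 3347, 2907 and 3011 in iMSBmal1KO, a change of 0.10 ± 0.17 (limma adjusted p = 0.854). It was found through the RefSeq window, a choice made after seeing the data.

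Rictor, the scaffold of mTORC2, had 61 regions, 16 of them tested and 0 called. Its start was split into small neighbouring regions, which moved in different directions. The strongest of them (chromosome 15, 6708401 to 6708538) had 41.6, 36.0, 36.2 and 37.5 in vehicle and 31.7, 40.1, 25.05 and 23.8 in iMSBmal1KO, a change of -0.34 ± 0.27 (limma adjusted p = 0.679). The one just upstream (6708275 to 6708380) had 8.53, 16.4, 17.8 and 3.13 in vehicle and 41.5, 36.8, 14.3 and 21.3 in iMSBmal1KO. Its groups overlapped, with a change of 1.35 ± 0.46 (limma adjusted p = 0.443). Both overlap the GC-rich promoter printed above. A region in intron 24 (6778887 to 6778967) had separate groups, 13.4 to 24.6 in vehicle and 28.6 to 39.3 in iMSBmal1KO, a change of 0.80 ± 0.29 (limma adjusted p = 0.468). Rictor's strongest region was not at its start but in coding exon 31 (6787133 to 6787612), with 280 ± 79.2 in vehicle and 317 ± 51.0 in iMSBmal1KO (SD, n = 4).

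The brake on mTORC1 is the TSC complex. Tsc1 had 17 regions, 2 of them tested, and its start region (chromosome 2, 28640776 to 28641339) had 546, 596, 347 and 335 in vehicle and 473, 595, 420 and 547 in iMSBmal1KO. The groups overlapped, with a change of 0.19 ± 0.21 (limma adjusted p = 0.771). Tsc2, which encodes the subunit that acts on RHEB, had 19 regions, 5 of them tested. Its strongest start region by annotation (chromosome 17, 24633159 to 24633297) had 25.6 ± 8.59 in vehicle and 27.2 ± 9.90 in iMSBmal1KO (SD, n = 4), a change of 0.07 ± 0.32 (limma adjusted p = 0.952). The region over the RefSeq start of Tsc2 (24632591 to 24632832) is annotated to Nthl1, which starts beside it in the opposite direction. There the signal was 53.3, 117, 61.6 and 71.9 in vehicle and 102, 79.4, 104 and 79.0 in iMSBmal1KO, with overlapping groups (change 0.31 ± 0.26, limma adjusted p = 0.691). The tested Tsc2 region with the smallest p lay in an intron (24628856 to 24628926), at -0.32 ± 0.36 (limma adjusted p = 0.776). With the deposited scaling Tsc2 was the only one of the 9 genes whose summed signal had a negative change, -0.25 ± 0.18 (limma adjusted p = 0.612).

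Rheb, the GTPase that switches mTORC1 on, had 18 regions, 9 of them tested and 0 called. Its start region (chromosome 5, 24842184 to 24843244), which covers the E-box printed above, had 1257, 1155, 921 and 716 in vehicle and 1061, 1186, 923 and 999 in iMSBmal1KO. The groups overlapped, and the change was 0.07 ± 0.19 (limma adjusted p = 0.918). The groups were separate at weaker Rheb regions. One in intron 7 (24804800 to 24805009) had 12.8, 17.5, 17.8 and 15.6 in vehicle and 7.28, 6.69, 7.16 and 7.53 in iMSBmal1KO, a change of -1.04 ± 0.37 (limma adjusted p = 0.453). Another, at the start of the retained intron transcript Rheb-202 (24814054 to 24814264), had 10.7, 8.22, 5.08 and 9.38 in vehicle and 23.5, 13.4, 14.3 and 15.1 in iMSBmal1KO, a change of 0.92 ± 0.38 (limma adjusted p = 0.504). An internal start with separate groups was thus also present in Rheb, in the other direction and without passing the test.

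**Figure D3:**
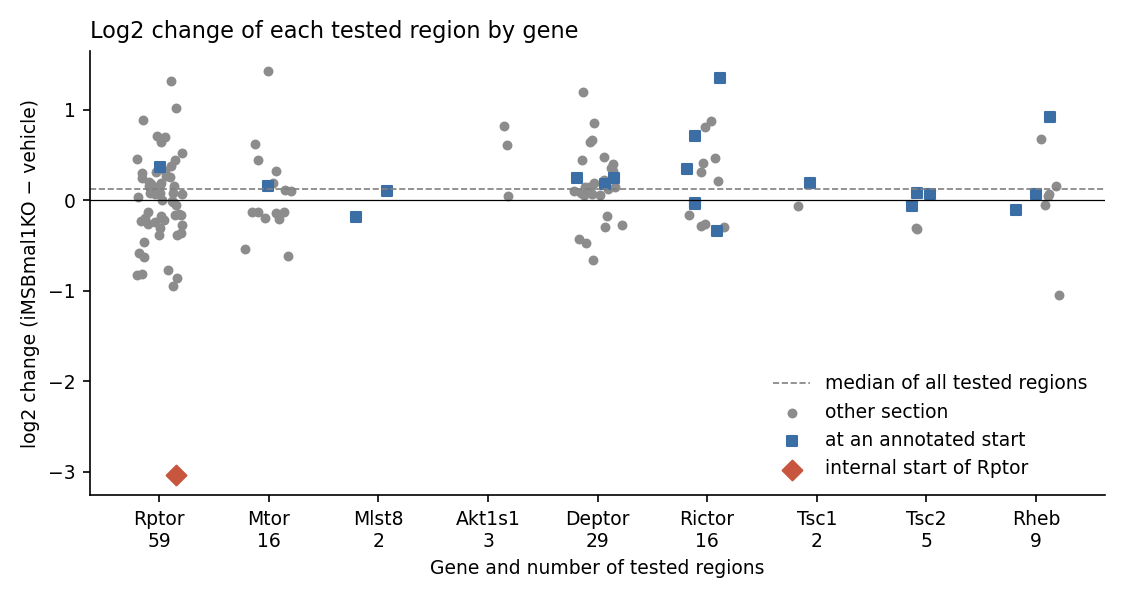
Log2 change of each tested region by gene, with the number of tested regions under each name. Squares are regions at annotated starts, grey circles other regions, the diamond the internal start of Rptor at -3.04, and the dashed line the median of all tested regions, 0.12. No region of the 8 other genes was called.

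Summed over all regions of each gene, 0 of the 9 genes were called, against 29 of 22224 tested genes (0.13%), 0 had an unadjusted limma p under 0.05 (9.48% of all genes), and the groups overlapped for all 9. The remaining sums changed by 0.26 ± 0.24 for Akt1s1 (limma adjusted p = 0.686), 0.23 ± 0.16 for Rictor (0.618), 0.15 ± 0.18 for Tsc1 (0.761), 0.10 ± 0.15 for Mlst8 (0.813), 0.09 ± 0.15 for Deptor (0.843) and 0.08 ± 0.16 for Rheb (0.878). Over all tested genes the median change was 0.11, and 3 of the 9 were above it. Loess scaling, which brings the median of all regions to 0.01, turned the sums of Rptor, Mtor, Mlst8, Rheb and Tsc1 and the start regions of Mlst8, Rheb and Tsc2 slightly negative, and total-read scaling did so for the sums of Rptor and Mtor. Regions within 1000 bp of an annotated start, summed per gene, gave 0 called of the 8 genes that could be tested, against 0.0792% of all genes, and 0 with an unadjusted limma p under 0.05 (10.1% of all genes). No such sum could be formed for Akt1s1. The sum of Rptor holds both the main start and the internal start by which the gene was chosen. It was 340 ± 28.2 (SD, n = 4) in vehicle and 330 ± 24.98 in iMSBmal1KO, and it describes neither start alone.

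Signal per 100 bp of the start region gives an order of the 9 genes in vehicle muscle. Akt1s1, through the region listed as Tbc1d17, was highest with 169 ± 36.1 (SD, n = 4), followed by Mlst8 with 116 ± 17.5, Mtor with 100.2 ± 15.6, Rheb with 95.4 ± 22.8, Deptor with 94.0 ± 20.5 and Tsc1 with 80.8 ± 23.8. Rptor followed with 63.6 ± 9.34, Tsc2 (listed as Nthl1) with 31.4 ± 11.8 and Rictor with 27.4 ± 1.88. The vehicle values of neighbours in this order overlapped except between Akt1s1 and Mlst8 and between Rptor and Tsc2. The start region of Rptor thus had less signal per 100 bp than that of Mtor in all 4 vehicle libraries, 54.0 to 75.3 against 86.1 to 121. The strongest start region of Rictor had still less. These regions are bounded in unlike ways, which limits the order. The Mtor region spans all 300 bases of its promoter window, the Rptor region only 35, and the start of Rictor is split into small regions. At its internal start Rptor reached 26.2 ± 2.58 per 100 bp in vehicle and 3.18 ± 1.74 in iMSBmal1KO.

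**Figure D4:**
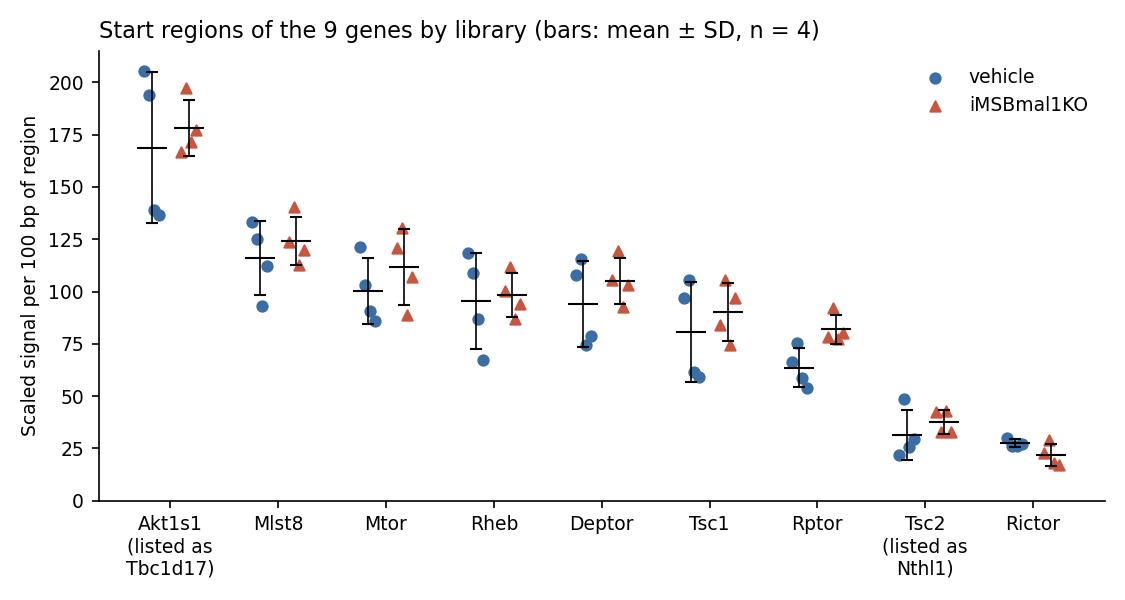
Signal per 100 bp of the start region of each gene, by library, in the order of the vehicle mean, with circles for vehicle, triangles for iMSBmal1KO and bars for the mean and SD (n = 4). The regions used for Akt1s1 and Tsc2 are listed under Tbc1d17 and Nthl1. The iMSBmal1KO values lie above the vehicle values without overlap at Rptor alone among the 9, by a small gap. That region was not called, and 3.62% of all tested regions were separate and higher.

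The rest of the pathway was followed through 58 other genes with 1276 regions, of which 497 were tested. None was called (0 of 497, limma, against 0.0881% of all tested regions), and 32 had an unadjusted p under 0.05 (6.44%), 22 higher and 10 lower. The groups did not overlap at 21 of them (4.23%, against 5.48%), and the median change was 0.07. Among the 13 genes of lysosomal amino acid sensing, the Rag GTPases, the Ragulator scaffold and the folliculin proteins, 5 of 76 tested regions had an unadjusted p under 0.05, and the median region changed by 0.07. Among the 17 genes of the GATOR complexes, KICSTOR and the nutrient sensors these figures were 8 of 73 and 0.08. The 17 targets gave 14 of 261 and 0.04, the 8 other mTORC2 subunits, TSC subunit and assembly factors 2 of 45 and 0.17, and the 3 stress inhibitors 3 of 42 and 0.08.

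Summed per gene, 0 of the 58 were called and 5 had an unadjusted limma p under 0.05 (9.48% of all genes did), all higher. Of the 58 changes 51 were positive (87.9%), against 66.6% of all tested genes. Of these changes 34 were above the median of all tested genes, which is 0.11 with the deposited scaling and 0.0029 with loess scaling. Region by region no such excess was seen: 288 of the 497 tested regions were positive (57.9%), against 62.0% of all tested regions. Rraga, a Rag GTPase that brings mTORC1 to the lysosome, had 205, 229, 153 and 122 in vehicle and 284, 306, 234 and 228 in iMSBmal1KO, a change of 0.60 ± 0.20 (limma adjusted p = 0.463). Only vehicle replicate 2 reached the lowest iMSBmal1KO value. Rps6, the ribosomal protein that S6 kinase phosphorylates, changed by 0.48 ± 0.18 (limma adjusted p = 0.5005), Rps6kb2, an S6 kinase, by 0.41 ± 0.18 (0.511), Seh1l, a GATOR subunit, by 0.40 ± 0.19 (0.524) and Kptn, of KICSTOR, by 0.36 ± 0.17 (0.517). For Kptn the groups were separate, 213 to 336 in vehicle and 342 to 398 in iMSBmal1KO. Among the negative changes were those of Fnip2, a partner of folliculin, with -0.24 ± 0.14 (limma adjusted p = 0.571), Tfeb, the lysosomal transcription factor, with -0.10 ± 0.15 (0.820), Castor1, the arginine sensor, with -0.09 ± 0.17 (0.867), and Nprl2, of GATOR1, with -0.04 ± 0.26 (0.968). A region in intron 1 of Fnip2 (chromosome 3, 79519155 to 79519494) had 188, 157, 153 and 116 in vehicle and 71.5, 98.7, 91.8 and 77.8 in iMSBmal1KO. Its groups did not overlap, and its change of -0.83 ± 0.22 did not pass (limma adjusted p = 0.260), but it passed with loess scaling (-1.01, 0.0121) and without vehicle replicate 4 (-0.96, 0.0414). It was named after its values were seen.

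**Figure D5:**
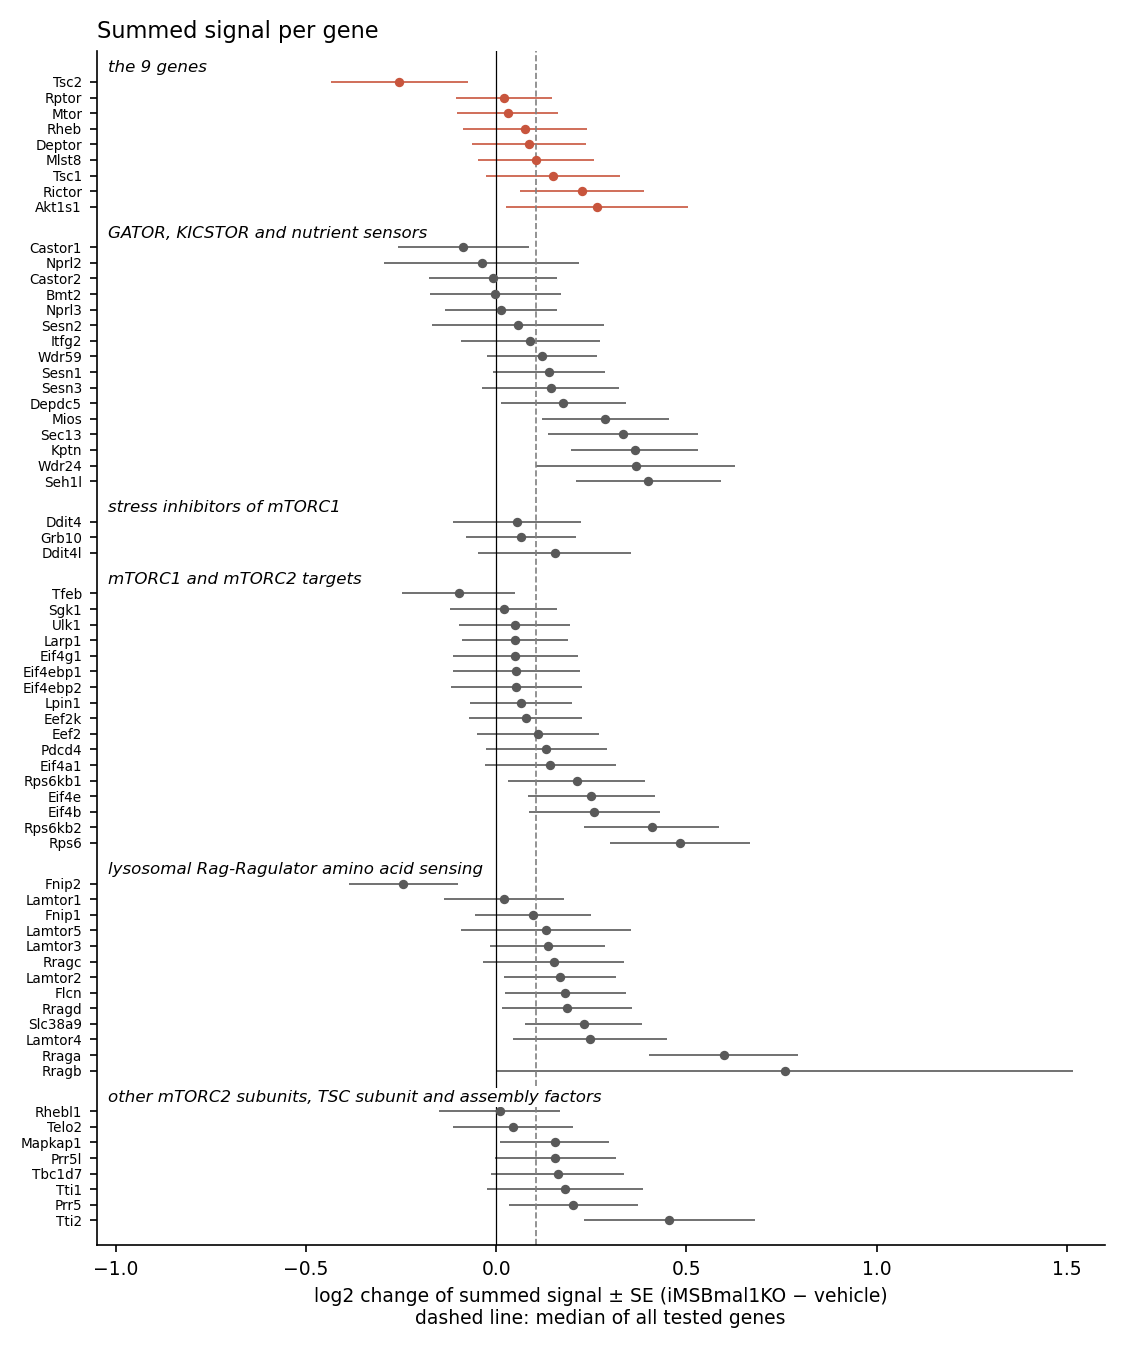
Log2 change of the signal summed per gene, with its SE, for the 9 genes (red) and all but 1 of the 58 other genes of the pathway (grey) by list. The dashed line is the median of all tested genes, 0.11. No gene was called, and 51 of the grey points lie above 0, with Rraga at 0.60 and Fnip2 at -0.24.

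The regions of other genes whose signal followed that of the Rptor internal start most closely over the 8 libraries are given as a description, by Pearson's r of log2(signal + 1), for which the difference between the groups counts as likeness. Among them were a start region of Gm17163 (r = 0.990), exon 2 of Gm11766 (0.980), intron 2 of Nmnat2 (0.980) and intron 2 of Mcat (0.979). Within the groups, after each group's mean was removed, r was highest for Gm11766 (0.993) and lower for Gm17163 (0.842), Nmnat2 (0.684) and Mcat (0.680). Nmnat2, which encodes an enzyme of NAD synthesis, had 66.1, 56.5, 60.4 and 50.03 in vehicle and 22.7, 17.6, 19.1 and 26.3 in iMSBmal1KO, a change of -1.41 ± 0.26.

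Gm11766 also lay on chromosome 11, 129 kb downstream of the internal start (119940303 to 119940511). Its region had 38.4, 33.9, 43.8 and 37.5 in vehicle and 8.56, 7.53, 5.96 and 21.3 in iMSBmal1KO, a change of -1.89 ± 0.35. As at the internal start of Rptor, replicate 3 was the highest of the vehicle libraries and replicate 4 the highest of the iMSBmal1KO libraries. The RefSeq table places this region inside Gm11767, and inside Baiap2 at 387 bp from its start. Of the 197 tested regions within 500 kb of the internal start, it was the only other one called. iMSBmal1KO replicate 4 was also the highest of its group in 34 of the 70 other regions called lower over the whole table, and what sets this library apart there was not tested.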

How the data were processed

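ATAC-seq measured accessible chromatin in 8 mouse gastrocnemius libraries, 4 vehicle and 4 iMSBmal1KO, grouped by their labels. The authors deposited 1 table with a signal per region and library, and all 8 value columns matched a sample. Whole multiples of 1 step per library (tolerance 0.02) made up 98.3% to 99.8% of the non-zero values of this deposited signal, so it was read as reads divided by a factor per library. Partek, Bowtie2, MACS2 and DESeq2 are named in the submitters' processing notes with the builds mm10 and GRCm39; their roles, duplicate removal and any shift of reads for the transposase are not given in the sources used here and could change the values. Positions, counted from 1, matched GRCm38.p6 (mm10) genes. Depth within the listed regions was 4.31 to 29.5 M read equivalents, which cover counting error only. The shallowest library limits weak regions.

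The filter asked for 0.762 read equivalents per M in 4 or more libraries and for 15 over all 8. limma-trend (limma 3.58.1, R 4.3.3) with robust moderation was fitted to log2(signal + 1) with group as the only term over all tested regions, over gene sums and over sums within 1000 bp of annotated starts, with Benjamini-Hochberg adjustment and a threshold of 0.05. Tables and figures used Python 3.11.15, pandas 2.3.3 and matplotlib 3.10.9. The genes and lists were chosen with earlier results of these data known. Named regions were the strongest start region and the region with the smallest p of each gene, every called region, the 5 strongest Rptor regions and the neighbours of the called one, the 5 pathway genes with the smallest p in each direction, and the 5 regions of other genes most like the Rptor internal start. Regions with separate groups, the starts of Rptor-209 and Rptor-211, Rictor coding exon 31 and the Fnip2 region were named after their values were seen. A pathway gene and a region of another gene that this rule named are not reported here. Tested on simulated data for 124901 regions, the fit called 69.0% of 4-fold and 10.0% of 2-fold changes, and 1 unchanged region. The simulation used the same assumed dispersion for every region and no library that stood apart, so these shares may not hold for the real libraries. Alternatives were other scalings, filters, pseudocounts, thresholds and promoter windows, limma-voom, a replicate block, merged regions and leaving out each library, and, chosen after seeing the data, start regions found by the RefSeq window.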

Additional observations from a re-analysis of the deposited data

Results flagged for a closer look

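Of 58 groups of 4 libraries examined at the named regions and gene sums, 2 held a library far from the other 3, where chance alone flags about 2.9. Both were iMSBmal1KO replicate 2 at Mtor. In the intron 29 region of Mtor (starting at 148513123) this library had a signal of 36.8 and the other 3 had 21.3 to 23.5, so the gap was 0.857 of the range of the group. In the summed signal of Mtor it had 1578 against 1344 to 1371, a gap of 0.885 of the range.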

How the results depend on the processing

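The log2 change of the Rptor internal start, given as a description, lay between -3.34 and -2.62 under the 18 alternatives it was fitted with. It lay between -3.34 and -2.84 when each library was left out in turn. Leaving out a library could not reverse its direction, because the groups do not overlap there, so these ranges test nothing. The count of called regions of the 9 genes stayed at 1 under 19 of 21 alternatives. It was 2 with limma-voom and 2 with loess scaling, through the intron 7 region of Rptor (0.96 and 0.85). The count for the 58 other genes was 0 except for 1, an intron 1 region of Fnip2, with loess scaling and without vehicle replicate 4, and leaving out libraries gave 0 to 1. The cause was not tested. No gene sum or start sum of the 9 genes was called under any alternative run. Values that changed sign were all small. With loess scaling these were the start regions of Mlst8 (-0.0059), Rheb (-0.032) and Tsc2 (-0.051), the intron 1 region of Rptor (-0.080) and the sums of Mlst8 (-0.027), Mtor (-0.060), Rheb (-0.027), Rptor (-0.017) and Tsc1 (-0.00097). With total reads they were the sums of Mtor (-0.022) and Rptor (-0.032). Leaving out libraries gave ranges of -0.086 to 0.18 for the Rheb start, -0.044 to 0.19 for the Rptor intron 1 region and -0.13 to 0.27 for the Tsc2 start. For the sums the ranges were -0.020 to 0.17 (Deptor), -0.023 to 0.054 (Mtor), -0.066 to 0.17 (Rheb) and -0.021 to 0.059 (Rptor). Vehicle replicate 4 or iMSBmal1KO replicate 2 was the library left out in each of these reversals.

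With the replicate number as a block, 1 region of the 9 genes and 0 of the 58 others were called, the Rptor internal start changed by -3.04, and 100 regions were called over the whole table against 110. Same-numbered libraries deviated together at a correlation over 0.1 in 1 of 4 pairs, which cannot show whether they share more than a number. Over the whole table the count of regions called at the threshold of 0.05 ran from 34 without vehicle replicate 1 to 342 with limma-voom or loess scaling. edgeR and DESeq2 were not run, because the deposited values are not counts and complete recovery of reads could not be shown. Weak regions of a few reads, such as those of Mtor intron 29 and Akt1s1, are limited by the depth of vehicle replicate 4.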
